A study of Mus musculus with 47 samples.

Results

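The receptor CSF1R, its ligands and the receptors related to it were examined in mouse cortex as a set of 9 genes, out of the 54281 genes in a table of TPM values and the 54532 genes in a table of read counts. The members were listed by name and not by their measured levels. They are the ligands *Csf1*, *Il34* and *Kitl*, the receptor tyrosine kinases *Csf1r*, *Kit* and *Flt3*, and the cytokine receptor chains *Csf2ra*, *Csf2rb* and *Csf3r*. All 9 genes were found in both tables.

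The study asked whether diurnal rhythms in the brain persist once microglia are depleted. Bulk cortical tissue from 47 male C57BL/6J mice was sequenced, 1 library per mouse. No mouse carried a transgene or a deletion: 23 were fed control chow and 24 were fed chow with PLX5622, an inhibitor of the CSF1R kinase, at 1200 ppm for 10 days. Mice were harvested at Zeitgeber times (ZT, hours after lights on) 2, 6, 10, 14, 18 and 22, with 4 mice of each diet per time and 3 control mice at ZT14. The inhibitor acts on the whole body. The mice were group-housed, and which mice shared a cage is not given in the sources used here.

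CSF1R is the receptor through which colony-stimulating factor 1 and interleukin 34 keep microglia alive. In the brain *Il34* is made mainly by neurons, while *Csf1* is made by glia and other cells. KIT, whose ligand is the product of *Kitl*, and FLT3 belong to the same family of receptor tyrosine kinases as CSF1R. The products of *Csf2ra* and *Csf2rb* are the alpha chain of the GM-CSF receptor and the common beta chain used by the GM-CSF, interleukin 3 and interleukin 5 receptors. *Csf3r* encodes the G-CSF receptor.

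Libraries held 16597987 to 27626161 counted reads (median 18314954 for control, 21476967.5 for PLX5622). The labelled tissue carried its markers: the summed level of 5 excitatory neuron genes was 1520 to 2606 TPM in control mice and 1631 to 2442 TPM in PLX5622 mice. Genes listed for the striatum were also present and varied between mice. The 7 of them summed to 129 to 642 TPM in control mice and 187 to 571 TPM in PLX5622 mice. The summed level of 12 microglial genes was 322 to 482 TPM in control mice and 24.05 to 91.9 TPM in PLX5622 mice, and all 12 were lower. TPM is a level scaled for transcript length and library depth, and it was used to compare genes with each other. CPM values, counts scaled to the library total computed here, are not scaled for length, and they were used only to compare 1 gene across mice.

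In control cortex *Csf1r* and *Il34* were the most abundant of the 9 transcripts. The median of *Csf1r* was 49.3 TPM, between 31.7 and 84.4 TPM in 23 mice, and that of *Il34* was 45.0 TPM, between 30.3 and 54.9 TPM. These ranges overlapped, and both lay above the highest value of every other member. Next came *Kitl* with a median of 14.9 TPM, *Csf2ra* with 10.2 TPM, *Kit* with 7.57 TPM and *Csf1* with 6.67 TPM, in an order whose neighbours overlapped. *Csf3r* with 2.21 TPM, *Flt3* with 1.37 TPM and *Csf2rb* with 0.411 TPM were the least abundant, and each of them overlapped its neighbour. Of the ligands of CSF1R, *Il34* stood 6.66 times above *Csf1* at the median, and 4.16 to 8.35 times in single control mice.

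In PLX5622 mice the order changed at the receptor. By median TPM *Csf1r* went from the first to the sixth place, after *Il34*, *Kitl*, *Csf2ra*, *Kit* and *Csf1*. Its range, 0.192 to 10.1 TPM, still overlapped those of *Csf1*, *Kit*, *Csf2ra* and *Kitl*, and in single mice it exceeded *Csf1*. The summed TPM of *Csf1* and *Il34* was 0.602 to 1.61 times that of *Csf1r* in control mice and 6.07 to 290 times in PLX5622 mice, without overlap. The ratio of *Il34* to *Csf1* had a median of 6.48, and the median of *Kitl* to *Kit* went from 1.82 under control chow to 1.79.

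*Csf1r* was lower in each of the 24 PLX5622 mice than in any control mouse, a separation that 0.583% of all genes showed on TPM. The gene lies on chromosome 18 from 61100598 to 61132149 (plus strand) in GENCODE M21 on GRCm38. By time, the counts in control mice were 1901, 2092, 2302 and 2160 at ZT2, 1742, 1871, 1575 and 2127 at ZT6, and 1806, 2235, 2523 and 1921 at ZT10. They were 2337, 2435 and 3111 at ZT14, 1904, 2073, 1547 and 1891 at ZT18, and 1954, 2984, 2102 and 1806 at ZT22. In PLX5622 mice they were 181, 36, 22 and 279 at ZT2, 348, 307, 104 and 157 at ZT6, and 223, 43, 11 and 334 at ZT10. All of them lay below the lowest control count, 1547. The remaining PLX5622 mice had 326, 79, 150 and 70 counts at ZT14, 240, 202, 260 and 337 at ZT18, and 384, 159, 190 and 111 at ZT22.

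The mean of *Csf1r* was 51.6 ± 13.6 TPM (SD, n = 23) in control mice and 4.19 ± 2.77 TPM (SD, n = 24) in PLX5622 mice, or 8.12% of control. In CPM it was 109 ± 11.2 and 8.78 ± 5.01, or 8.08% of control. On the log2(TPM + 1) scale the gene was lower by a log2 fold change of -3.54 (SE 0.19), with an adjusted p of 1.22e-20 in limma. On counts the log2 fold change was -3.64 (SE 0.19), with an adjusted p of 2.26e-22 in edgeR's quasi-likelihood test. It had the third lowest fold change of the 14580 genes tested on TPM, and ranked 7 of 16284 on counts. At each of the 6 times all PLX5622 mice lay below all control mice in CPM, and the mean was between 5.21% of control at ZT2 and 11.5% at ZT18. That holds at all times for 1.12% of the genes tested on counts. Less RNA per cell and fewer cells of a type cannot be told apart in bulk tissue.

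Residual *Csf1r* varied widely among treated mice. From the lowest to the highest PLX5622 mouse the range was 52.5-fold in TPM and 28.6-fold in CPM, compared with 2.66-fold and 1.46-fold among control mice. Without the lowest PLX5622 mouse, mouse 3 at ZT10, it was 29.4-fold in TPM and 18.6-fold in CPM. The coefficient of variation in CPM was 57.0% in PLX5622 mice and 10.3% in control mice. The 3 lowest were 11 counts in a mouse at ZT10 and 22 and 36 counts in mice at ZT2, and other mice of the same times had 334 and 279 counts. Across the 24 PLX5622 mice log2 *Csf1r* had a Pearson r of 0.81 with the log2 summed level of the 12 microglial genes, and across the 23 control mice the r was 0.58. These points share library and depth, so they are given as a description. Per 1000 TPM of these microglial genes, the median of *Csf1r* was 126 TPM in control mice, between 82.3 and 179, and 66.9 TPM in PLX5622 mice, between 7.48 and 199.

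**Figure D1:**
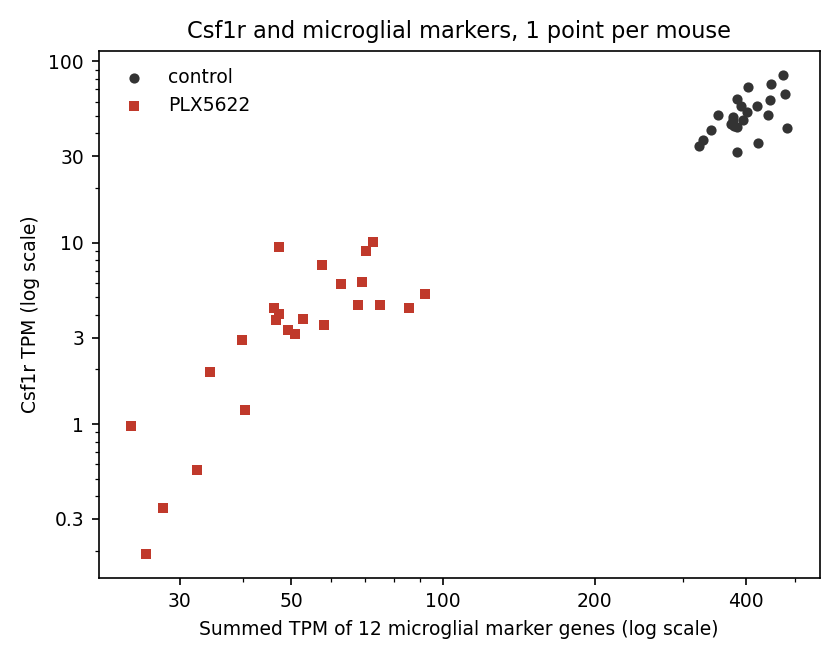
*Csf1r* TPM of each mouse (y axis) against the summed TPM of 12 microglial marker genes (x axis), both on log scales, with 1 point for each of 23 control and 24 PLX5622 mice. The control mice lie between 31.7 and 84.4 TPM of *Csf1r* and 322 and 482 TPM of the markers, apart from the PLX5622 mice, which spread from 0.192 to 10.1 TPM and from 24.05 to 91.9 TPM.

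*Csf3r* and *Csf2rb*, both best known from myeloid cells, were the other members that fell. *Csf3r* had 64 to 187 counts in control mice (median 113) and 5 to 70 counts in PLX5622 mice (median 18.5). In CPM, 23 of 24 PLX5622 mice lay below every control mouse, and the exception was a mouse at ZT6 with 2.98 CPM. Within each of the 6 times all PLX5622 mice lay below all control mice. Its level fell to 18.1% of control in mean TPM and 16.1% in mean CPM. On counts the log2 fold change was -2.63 (SE 0.18), with an adjusted p of 1.40e-17 in edgeR. On log2(TPM + 1) it was -1.19 (SE 0.08), with an adjusted p of 9.86e-18 in limma. The pseudocount of 1 TPM makes the second fold smaller than the first, since PLX5622 mice had only 0.0374 to 1.25 TPM of the transcript. With a pseudocount of 0.1 TPM the fold of *Csf3r* was -2.43.

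*Csf2rb* had a mean below 1 TPM over all mice, so it was tested on counts alone. Its counts were 28, 27, 29 and 29 in control mice at ZT2, 13, 27, 32 and 19 at ZT6, 36, 29, 26 and 19 at ZT10, 22, 31 and 20 at ZT14, 24, 37, 9 and 17 at ZT18, and 18, 34, 27 and 20 at ZT22. In PLX5622 mice they were 1, 8, 5 and 13 at ZT2, 8, 7, 1 and 6 at ZT6, 2, 1, 1 and 12 at ZT10, 11, 2, 1 and 0 at ZT14, 13, 3, 6 and 6 at ZT18, and 7, 9, 1 and 1 at ZT22. One PLX5622 mouse had no read, which allows up to 3 counts, and 22 of 24 lay below every control mouse in CPM. The mean fell from 1.30 ± 0.395 CPM (SD, n = 23) to 0.239 ± 0.189 CPM (SD, n = 24), with a log2 fold change of -2.40 (SE 0.22) and an adjusted p of 9.94e-13 in edgeR. Groups overlapped only at ZT18 when the times were taken 1 by 1.

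Thus 2 of the 8 members tested on TPM (*Csf1r* and *Csf3r*) and 3 of the 9 tested on counts were lower in PLX5622 mice, and none was higher. Of all genes tested on TPM, 3.45% were called (2.58% lower, 0.871% higher), and of all genes tested on counts, 7.23% were called (5.08% lower, 2.14% higher). *Csf1r* was the only member whose groups did not overlap.

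**Figure D2:**
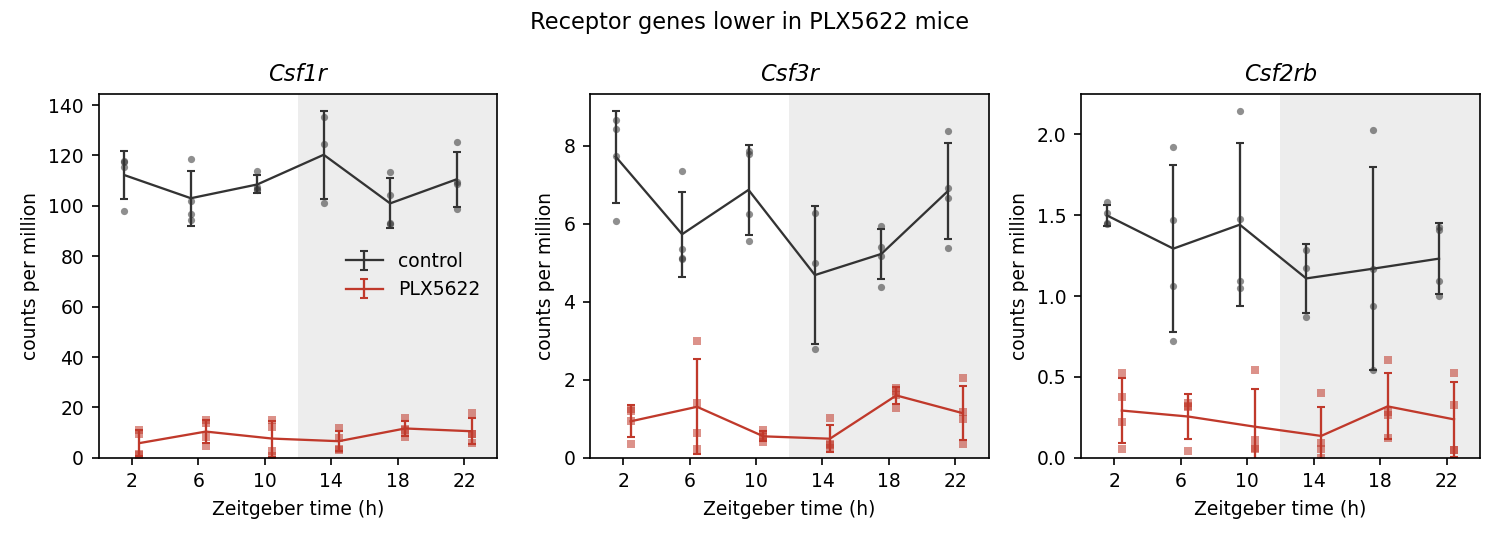
CPM of *Csf1r*, *Csf3r* and *Csf2rb* (y axes, from 0) against Zeitgeber time in hours (x axes), with 1 point per mouse and lines through the mean ± SD of each group of 3 or 4 mice. Error bars are cut at 0, the grey field is the dark phase, and the PLX5622 means are 8.08%, 16.1% and 18.4% of the control means.

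The sizes of these falls were compared within mice, as the log2 ratio of the counts of 2 members (pseudocount 0.5), with 100000 two-sided permutations of the diet within each time and p-values adjusted over the 5 pairs examined. The difference was taken after the mean of each time was subtracted, so it departs slightly from that of the means over all mice. *Csf1r* fell further than *Csf3r*: their log2 ratio had means of 4.15 ± 0.437 and 3.03 ± 1.11 (SD) in control and PLX5622 mice, and the difference within times was -1.15, with an adjusted p of 7.5e-05. In this ratio of counts *Csf1r* also fell further than *Csf2rb*, with a difference of -1.29 and an adjusted p of 0.000167. For *Csf3r* against *Csf2rb* the difference was -0.14, with an adjusted p of 0.732. *Csf2rb* counts were so low that the pseudocount shrinks its ratios and makes its fall look smaller, which favours the result for *Csf1r* against it. In mean CPM *Csf2rb* stood at 18.4% of control and *Csf1r* at 8.08%. In mean TPM they lay closer, at 9.44% and 8.12%.

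The chains of the GM-CSF receptor moved apart. *Csf2ra*, the alpha chain, had 148 to 397 counts in control mice (median 261) and 129 to 395 in PLX5622 mice (median 256.5), and the ranges overlapped throughout. The log2 ratio of *Csf2rb* to *Csf2ra* had means of -3.36 ± 0.554 and -6.00 ± 1.18 (SD) in control and PLX5622 mice, and the difference within times was -2.62. The permutation p was 1e-05, the smallest that 100000 permutations can give, and 5e-05 after adjustment. The fold of *Csf2ra* itself was -0.06 on TPM (95% interval -0.32 to 0.20, adjusted p = 0.868 in limma) and -0.12 on counts (-0.29 to 0.06, adjusted p = 0.518 in edgeR).

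The ligands of CSF1R did not pass the test by diet. *Il34* had 30.3 to 54.9 TPM in control mice and 32.1 to 63.7 TPM in PLX5622 mice, with medians of 45.0 and 45.3. In TPM all PLX5622 mice lay below all control mice at ZT14 alone, as 1.98% of all genes did. In CPM they also did so at ZT14, but at ZT6 all PLX5622 mice lay above all control mice. The ZT6 mean was 120% of control in CPM, and the share of all genes with that split was not computed. The log2 fold change of *Il34* was 0.12 on TPM (95% interval -0.03 to 0.27, adjusted p = 0.434 in limma) and 0.07 on counts (-0.02 to 0.15, adjusted p = 0.391 in edgeR). The intervals reach from 97.9% to 121% of control in TPM + 1 and from 98.9% to 111% on counts. *Csf1* had 5.42 to 8.44 TPM in control mice and 5.599 to 10.2 TPM in PLX5622 mice, with medians of 6.67 and 7.25. Its fold was 0.10 on TPM (0.00 to 0.20), with a p of 0.0468 before and 0.2998 after adjustment in limma. On counts it was 0.06 (-0.02 to 0.14), with an adjusted p of 0.413 in edgeR. The difference between the diet effects of *Csf1* and *Il34* was -0.02 on the log2 scale, with a permutation p of 0.805.

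The relatives of CSF1R did not pass either. *Kit* had 4.98 to 10.3 TPM in control mice and 4.93 to 12.5 TPM in PLX5622 mice, and its fold was 0.11 (95% interval -0.07 to 0.29, adjusted p = 0.552 in limma). *Kitl*, which encodes stem cell factor, had 8.74 to 22.3 and 8.81 to 25.1 TPM. Its fold was 0.06 on TPM (-0.15 to 0.27, adjusted p = 0.833 in limma) and 0.10 on counts (0.01 to 0.19), with a p of 0.0415 before and 0.223 after adjustment in edgeR. *Flt3* had 0.779 to 2.50 and 0.887 to 2.699 TPM, with a fold of 0.06 (-0.08 to 0.20, adjusted p = 0.705 in limma). On counts the upper 95% limits of *Il34*, *Csf1*, *Kit*, *Kitl* and *Flt3* lay between 1.0997 and 1.20 times control. On TPM they lay between 1.15 and 1.23 times control in TPM + 1, a scale that shrinks folds of low genes, and with a pseudocount of 0.1 TPM they reached 1.26 for *Kit* and 1.25 for *Flt3*. The median fold of all genes was 0.03 on TPM and 0.01 on counts.

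**Figure D3:**
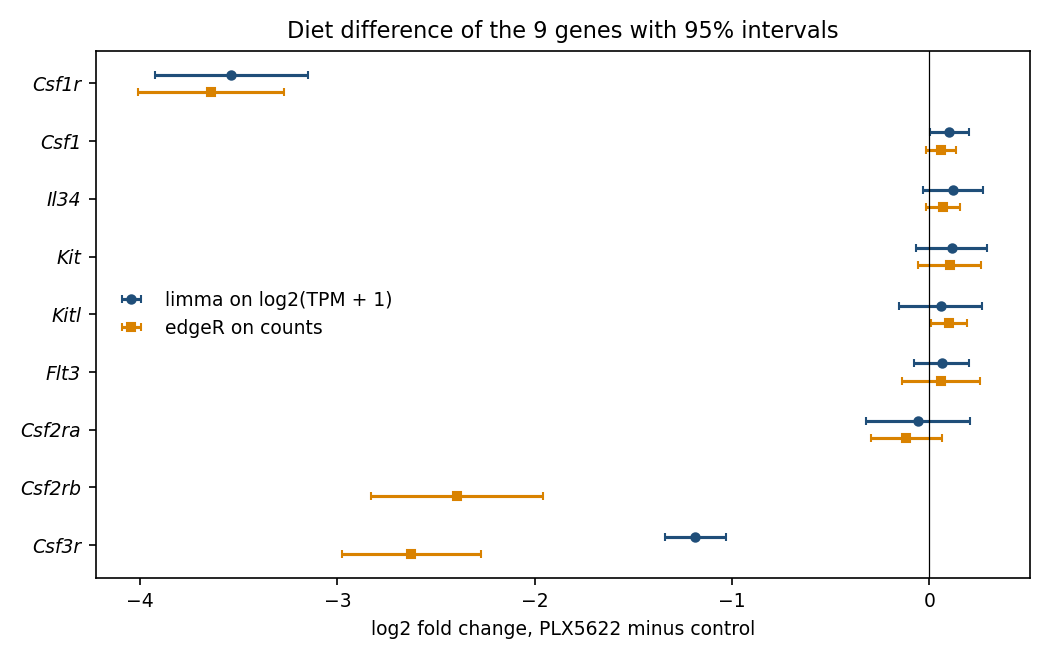
Log2 fold change of PLX5622 against control mice (x axis) for the 9 genes (y axis), from limma on log2(TPM + 1) (circles) and edgeR on counts (squares), with 95% intervals. *Csf1r* lies near -3.54 and -3.64 and *Csf2rb*, shown on counts alone, near -2.40, *Csf3r* differs between -1.19 and -2.63, and the other 6 genes lie between -0.12 and 0.12.

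The time of day was then examined within each diet with JTK_CYCLE, a rank test for rhythms, at a period of 24 h. No member was called in either diet. Over all genes the shares called were 0.0754% in control mice and 0.61% in PLX5622 mice. *Csf1* in PLX5622 mice came nearest, with a p of 0.000653 and an adjusted p of 0.0756, and its adjusted p in control mice was 1.

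In PLX5622 mice *Csf1* was at 5.599, 7.60, 5.92 and 6.50 TPM at ZT2 and 7.08, 6.30, 7.98 and 5.75 TPM at ZT6, and at 8.05, 7.36, 9.75 and 7.90 TPM at ZT10 and 8.01, 8.94, 9.65 and 10.2 TPM at ZT14. It then stood at 7.27, 6.06, 6.55 and 7.83 TPM at ZT18 and 6.71, 6.59, 6.30 and 7.24 TPM at ZT22. In control mice the ZT14 values were 7.62, 7.003 and 7.88 TPM, all below those of the PLX5622 mice at that time, a pattern shared by 3.17% of all genes. The means over the day ran from 6.40 ± 0.879 TPM at ZT2 to 9.21 ± 0.952 TPM at ZT14 in PLX5622 mice, and from 6.14 ± 0.406 TPM at ZT18 to 7.50 ± 0.453 TPM at ZT14 in control mice (SD). CPM gave the same high time, with means of 25.7 ± 2.15 and 21.98 ± 0.622 at ZT14.

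A cosine fitted to *Csf1* had a log2 amplitude of 0.21 (SE 0.05) with a peak at ZT12.8 in PLX5622 mice and of 0.04 (SE 0.05) in control mice. The limma F test of this cosine called the gene in PLX5622 mice (adjusted p = 0.0218), as did edgeR on counts (adjusted p = 0.00478), where 1.45% and 2.92% of all genes were called. In control mice the adjusted p was 0.920 in limma and 0.732 in edgeR. The test of the difference in rhythm between the diets did not pass: the p was 0.0365 in limma before adjustment and 0.99999 after it. On counts the p was 0.0366, with an adjusted p of 0.861 in edgeR. No gene passed that test in limma or edgeR with the terms used here, while 669 and 914 genes had an unadjusted p under 0.05. With 3 principal components of the residuals as covariates 237 genes passed it in limma, none of them a member, and the adjusted p of *Csf1* was 0.0741. These components come from the residuals of the same fit and shrink the error by construction, so no conclusion is drawn from them.

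**Figure D4:**
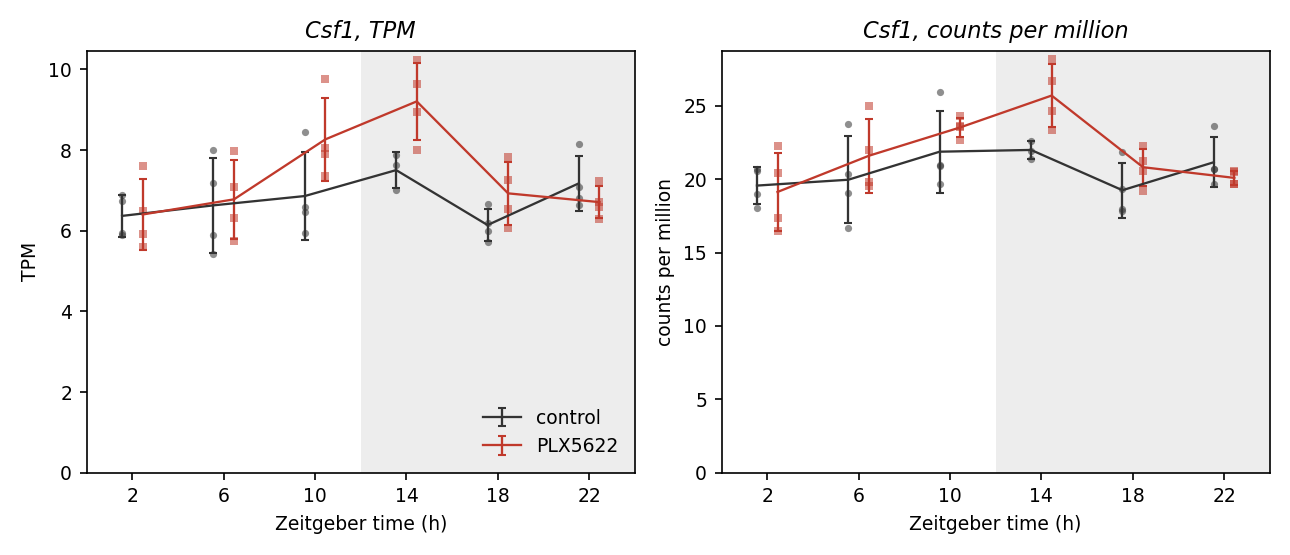
*Csf1* in TPM (left) and CPM (right), on y axes from 0, against Zeitgeber time in hours, with 1 point per mouse and lines through the mean ± SD of each group of 3 or 4 mice. In PLX5622 mice the mean is highest at ZT14 on both scales, at 9.21 TPM and 25.7 CPM, and in control mice it is 7.50 TPM and 21.98 CPM there.

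For the other members the values over the day were as follows. *Kitl* in control mice had means from 10.9 ± 1.97 TPM at ZT10 to 19.6 ± 2.75 TPM at ZT14 (SD), and only edgeR on counts called its rhythm (adjusted p = 0.0391), where 3.6% of all genes were called in control mice. In limma its adjusted p was 0.685. *Csf2ra* in control mice had means from 7.01 ± 2.34 TPM at ZT18 to 14.8 ± 6.95 TPM at ZT2, with an adjusted p of 0.580 in JTK_CYCLE and 0.219 in limma. *Csf1r* in control mice had an adjusted p of 1 in JTK_CYCLE and 0.982 in limma. In PLX5622 mice its means ran from 1.962 ± 1.77 TPM at ZT2 to 5.94 ± 2.99 TPM at ZT18 (SD), with a log2 amplitude of 0.46 (SE 0.19) and an adjusted p of 0.936 in JTK_CYCLE and 0.414 in limma. *Csf3r* in PLX5622 mice ran from 0.148 ± 0.0427 TPM at ZT10 to 0.636 ± 0.161 TPM at ZT18 (SD), with an amplitude of 0.18 (SE 0.07) and an adjusted p of 0.597 and 0.422 in these tests. Of the variance of log2(TPM + 1), diet held 87.2% for *Csf1r* and 82.5% for *Csf3r*, and at most 7.73% for the other members tested. Time within diet held 48.4% for *Csf1* and 40.8% for *Kitl*, and differences between mice of a group held 58.6% to 75.7% for *Il34*, *Kit*, *Kitl*, *Flt3* and *Csf2ra*. The shares are not corrected for the number of groups, so differences between mice alone put part of the variance into time. For *Il34*, *Kit*, *Flt3* and *Csf2ra* time within diet held 19.1% to 35.9%.

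**Figure D5:**
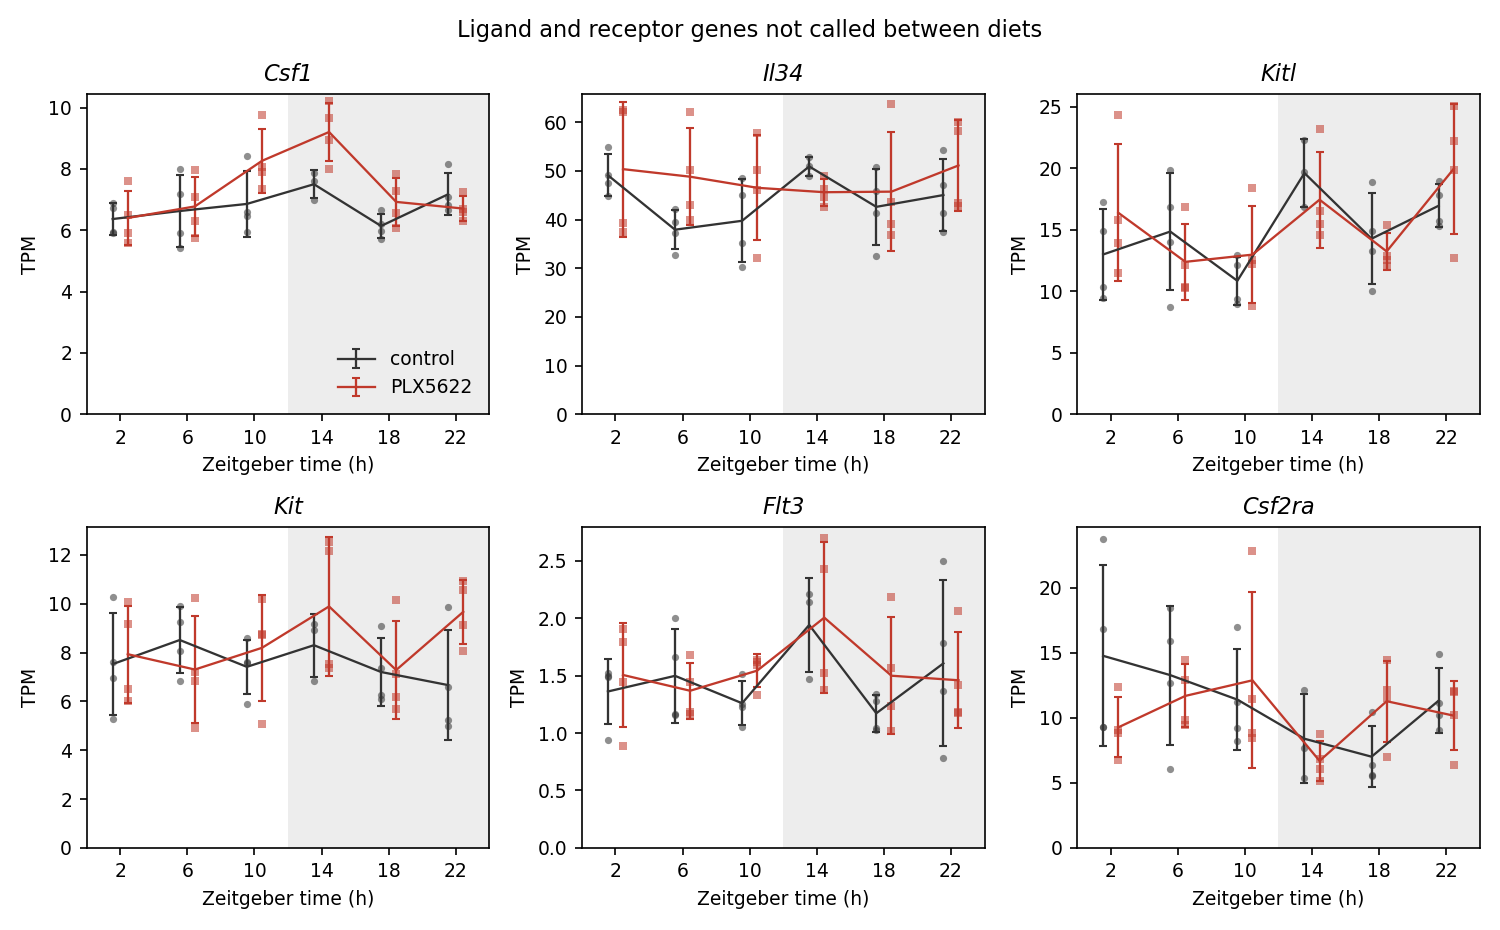
TPM of the 6 genes not called between diets (y axes, from 0) against Zeitgeber time in hours (x axes), with 1 point per mouse and lines through the mean ± SD of each group of 3 or 4 mice. Taken over all times the diets overlap for every gene, while at ZT14 alone they do not for *Csf1* and *Il34*. The values reach from *Flt3* at 0.779 to 2.699 TPM up to *Il34* at 30.3 to 63.7 TPM.

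Genes downstream of these receptors were counted from a list of 29. On TPM 5 of 26 tested fell and none rose. They were *Tyrobp*, an adaptor of microglial receptors, with a log2 fold change of -3.30 (SE 0.18), the phosphatases *Ptpn6* (-1.47, SE 0.12) and *Inpp5d* (-0.97, SE 0.12), the kinase *Lyn* (-0.83, SE 0.07) and the phospholipase *Plcg2* (-0.58, SE 0.05). On counts 9 of 28 fell and none rose. Those that fell included these 5 and the kinase genes *Syk* (-1.46, SE 0.10) and *Pik3cd* (-0.23, SE 0.04) and the adaptor gene *Gab2* (-0.14, SE 0.04). Components used by most cells lay close to 0 on TPM: *Grb2* had a fold of -0.01 (SE 0.05), *Akt1* of -0.05 (SE 0.03) and *Mapk3* of -0.01 (SE 0.04), and none of them passed. The list's median fold was -0.04 on TPM and -0.06 on counts.

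Of 16 further ligands and receptors, 9 were tested on TPM and none passed, and on counts 1 of 10 fell, the growth factor gene *Pdgfb* (-0.15, SE 0.05, adjusted p = 0.0397 in edgeR). *Flt3l*, the ligand of FLT3, had a fold of -0.14 on TPM (SE 0.13, adjusted p = 0.616 in limma). *Ptprz1*, a phosphatase that can bind interleukin 34, had a fold of 0.16 on TPM (SE 0.06, adjusted p = 0.160 in limma), and *Sdc1*, a syndecan that can also bind it, 0.06 on counts (SE 0.14, adjusted p = 0.857 in edgeR). The ligand genes *Csf2* and *Csf3* had a median of 0 TPM in both diets, with at most 0.124 TPM in any mouse. *Csf2rb2*, the close paralog of *Csf2rb*, was below both filters, with median levels of 0.237 TPM under control chow and 0.0484 TPM under PLX5622.

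Markers of the cells that could carry these receptors were set beside them. Of 7 genes of border macrophages, 6 were tested on counts and all 6 fell, and their summed level was 7.82 to 20.2 TPM in control mice and 0.385 to 2.94 TPM in PLX5622 mice. Of the neutrophil genes *Ly6g*, *Mpo*, *Elane*, *Cxcr2* and *Retnlg* were too low to test, and neither of the other 2 passed. Of 6 mast cell and 6 dendritic cell genes 1 each could be tested (*Hdc* and *Zbtb46*), and neither passed. The rest were too low to test, so these lists cannot show whether such cells changed. No gene passed among 5 of endothelial cells, 5 of mural cells, 5 of excitatory neurons or 7 of interneurons, on either scale. Among 7 astrocyte genes 1 rose on both scales (*Gfap*), and among 7 of oligodendrocytes 1 rose on TPM and 2 on counts. Among 5 choroid plexus genes 2 rose on TPM and none on counts, and their summed level was 66.5 to 1183 TPM in control mice and 145 to 1267 TPM in PLX5622 mice. The part of each cell type in the values of *Csf3r* and *Csf2rb* was not tested.

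The genes most like a member in how mice deviated from their group means were found over 47 mice on log2(TPM + 1). For *Csf1r* they were *Ctss*, *C1qa*, *C1qb*, *C1qc* and *P2ry12*, with r from 0.78 to 0.82. Within the 24 PLX5622 mice they were *Tmem119*, *Ctss*, *C1qa*, *P2ry12* and *Tifab* (0.83 to 0.86), and within the 23 control mice *Fam180a*, *Arhgef12*, *Apln*, *Bmpr1a* and *Prrc2b* (0.86 to 0.90). For *Csf1* they were *Jun*, *Pcdh19*, *Lbh*, *Spry1* and *Npy2r* (0.70 to 0.74), and for *Il34* *Plppr4*, *Gda*, *Wasf1* and *Dbpht2* (0.84 to 0.85). For *Kit* they were *Atp2b3*, *Pls3*, *Tnfrsf21*, *Syt11* and *Jak1* (0.92 to 0.93), and for *Kitl* *B3galt1*, *Wdr73*, *Usp42*, *Arsa* and *Efnb1* (0.60 to 0.64). Among the 8 members tested on TPM, *Il34* with *Kit* had an r of 0.71 over all mice, 0.47 in control and 0.84 in PLX5622 mice, and *Kit* with *Flt3* had 0.68, 0.67 and 0.69. *Csf2ra* with *Csf3r* had an r of 0.40 over all mice and 0.67 in control mice. *Csf1r* had an r of -0.09 with *Csf1* and 0.11 with *Il34*. These values share library and depth.

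The tables differed in how closely they followed each other for single members. Between the control mice the ratio of TPM to CPM varied 1.22-fold for *Csf1* but 2.22-fold for *Csf1r* and 17.0-fold for *Csf2rb*. Between the PLX5622 mice it varied 8.50-fold for *Csf3r*, 3.96-fold for *Csf1r* and 3.35-fold for *Csf2rb*. In control mice at ZT2, for example, 29 counts of *Csf2rb* came with 0.482 TPM in 1 mouse and with 3.41 TPM in another. The gene *Hmgxb3* lies on the opposite strand and shares 873 exon bases with *Csf1r*, 15.1% of them, *Il34* shares 22 and 75 bases with the antisense genes *Gm15894* and *Gm15895*, and *Csf2rb* resembles *Csf2rb2*. Whether counting used the strand is not given in the sources used here, so reads of these genes may be split or shared.

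In GENCODE M21 on GRCm38, *Csf3r* lies on chromosome 4 from 126024550 to 126044440 (plus strand) and *Csf2rb* on chromosome 15 from 78325752 to 78353847 (plus). *Csf1* lies on chromosome 3 from 107741048 to 107760469 (minus), *Il34* on chromosome 8 from 110741829 to 110805924 (minus) and *Csf2ra* on chromosome 19 from 61223957 to 61228429 (minus). Of the 9 genes 6 had an entry in the RefSeq promoter table (GRCm38.p6), *Csf3r* and *Csf2ra* among them. They are shown because *Csf3r* fell and *Csf2ra* did not pass the test. The 250 bases before each start were searched on both strands for GAGGAA, whose reverse is TTCCTC. These letters can be bound by PU.1, a myeloid factor of the ETS family. The search was chosen after the values were seen. Of all 32851 promoters 23.3% held GAGGAA. It occurred 1 time before *Csf3r*, at chr4:126024561-126024590 (plus strand), and 2 times in a row before *Csf2ra*, at chr19:61228419-61228448 (minus strand), and not before *Csf1*. The first window lies inside the gene as GENCODE draws it, and the second partly. The windows of 30 bases have the match in capitals.
Csf3r: cctccttcctgaGAGGAAggggctgtctat
Csf2ra: ttcccaacctgcagatGAGGAAGAGGAAgc
The letters are present before a gene that fell and a gene that did not pass the test.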

How the data were processed

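The authors mapped reads to the mouse genome with STAR and computed the deposited TPM values with Salmon. The submitters' processing notes also name mm10, featureCounts, edgeR and limma, without roles. A second table bears the name FPKM, yet it holds whole numbers with unequal library totals, so these values deposited by the authors were treated as raw counts. The counter's annotation is not given in the sources used here. Both NovaSeq and HiSeq instruments are named, but not per library. Of the identifiers, 99.7% of the TPM table and 99.8% of the count table matched a gene name.

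Groups came from the labels. Genes averaging 1 TPM or more over all libraries (14580) were tested with limma 3.58.1 in R 4.3.3 on log2(TPM + 1), with diet and the cosine and sine of time (24 h) as terms, and the interactions for rhythm. The 16284 genes with a mean count of at least 10 were tested with edgeR 4.0.16. Its SE was taken as the absolute log2 fold change over the root of F, and its 95% interval as approximate. Benjamini-Hochberg adjustment ran over all genes tested, with a threshold of 0.05. JTK_CYCLE was written in Python 3.11.15, with 6 phases. A first version corrected over 6 two-sided phases. Opposite phases share a statistic, so the correction was changed after the results were seen, and both are given. The pair tests were added later.

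The named genes were all 9 members, the 5 genes most like *Csf1r*, *Csf1*, *Il34*, *Kit* and *Kitl*, called genes of the pathway lists (at most 8 per list with the largest fold) and 6 listed ligands and receptors. Single values of some of them are not reported here. *Grb2*, *Akt1*, *Mapk3* and the marker genes named were chosen after their values were seen. Members and lists were chosen with earlier results of these data known. Counts of mice of a group differed by a chi-square of at least 3.45 per degree of freedom in 69 pairs, so none was a copy of another in its group. Scripts were tested on simulated data. Alternatives covered filters, pseudocount, scaling, time terms, block, covariates, DESeq2 1.42.0 and each library left out in turn. Counting limits cover counting error only.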

Additional observations from a re-analysis of the deposited data

Results flagged for a closer look

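In 6 of 99 sets of 4 mice (1 member in 1 group), a mouse stood apart from the others by Dixon's test, and chance gives about 5%. *Csf1r* had 2.89 TPM in mouse 3 of the PLX5622 group at ZT6, below 4.38 to 4.54 TPM in the other mice. *Csf2rb* had 0.185 TPM in mouse 4 of the PLX5622 group at ZT10, above 0.0148 to 0.0314 TPM, and 0.144 TPM in mouse 1 of that diet at ZT14, above 0 to 0.0246 TPM. *Csf3r* had 2.24 TPM in mouse 1 of the control group at ZT18, above 1.67 to 1.75 TPM. *Flt3* had 0.936 TPM in mouse 2 of the control group at ZT2, below 1.49 to 1.53 TPM, and 1.33 TPM in mouse 2 of the PLX5622 group at ZT10, below 1.59 to 1.63 TPM.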

How the results depend on the processing

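The direction of each member's fold by diet was the same under every alternative run, and *Csf1r*, *Csf3r* and *Csf2rb* kept their calls in each of the 47 fits without 1 library. At a mean of at least 5 TPM, 298 genes and 1 member differed by diet instead of 503 and 2, since *Csf3r* is under that filter. With 3 residual principal components 2558 genes did (237 in rhythm, against 0), and *Csf1* passed (0.10, adjusted p = 0.0411 in limma). These components were taken from the residuals of the same fit. By construction they leave the fold unchanged and shrink its SE, for *Csf1* from 0.0492 to 0.0351. No conclusion is drawn from the added calls. The adjusted p of *Csf1* was 0.175 to 0.396 in limma without single libraries. In control mice 1 member (*Kitl*) cycled by the edgeR F test. In PLX5622 mice 1 member (*Csf1*) cycled by the limma F test and 1 by edgeR. Without 1 library, 429 to 635 genes differed on TPM and 1056 to 1477 on counts, with 2 and 3 members. The members cycling in PLX5622 mice were 0 to 1: JTK_CYCLE called *Csf1* without mouse 2 or 3 at ZT18 or mouse 2 at ZT2. With the two-sided correction JTK_CYCLE called 2 genes in control and 38 in PLX5622 mice, against 11 and 89, with an adjusted p of 0.151 for *Csf1*. Mice shared only a replicate number (23 pairs, r from -0.09 to 0.20). With the replicate number as a block 578 genes differed on TPM and 1436 on counts, and the members were again 2 and 3. The pair tests on TPM (pseudocount 0.1, chosen after seeing the data) kept direction and side of the threshold. That pseudocount exceeds the median of *Csf2rb* in PLX5622 mice, 0.0625 TPM. The TPM run therefore cannot show that *Csf1r* fell further than *Csf2rb*. *Csf2rb* had at most 37 counts in a mouse, which limits its precision.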
